A study of Mus musculus with 8 samples.

Results

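Adherens junctions and desmosomes are the protein complexes that hold neighbouring epithelial cells together, and 34 mouse genes for them were described here in distal colon RNA, of 51425 gene symbols in the deposited expression matrix. The genes are listed by name, in a list drawn up with earlier results of these data known, and they are 5 cadherin and Epcam genes, 6 catenin and vinculin genes, 6 genes of the nectin family with afadin, 6 desmosomal cadherins, 7 desmosomal plaque genes and 4 hemidesmosome genes. Each symbol had 1 row. Of the 34 genes, 32 passed a filter on low values (1 TPM or more in 4 or more samples) and were tested, and Cdh2 and Ctnna2 did not pass it. TPM, the deposited expression unit, is a level corrected for transcript length and for the library total, so that levels of different genes can be set beside each other within a sample.

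RNA was sequenced from 4 control samples and 4 Siglec-XII samples of distal colon at baseline, that is, with no carcinogen and no colitis. Siglec-XII mice (SIGLEC12-Villin1-Cre-ERT) carried Cre-ERT under the Villin1 promoter and 1 knockin allele of human SIGLEC12 in ROSA26, which is expressed in intestinal epithelium once Cre removes a stop cassette. Control mice (Villin1-Cre-ERT) were littermates with the Cre-ERT transgene and no knockin allele. All were females of 8 weeks given tamoxifen (10 mg/ml) on 5 consecutive days, and colons were taken 7 days after the last dose (day 12). Controls thus shared Cre-ERT and tamoxifen, and no group without them was compared. The design text speaks of 3 mice per condition and the Methods of 3 technical replicate libraries per sample, while the labels list 4 samples per group, and nothing ties each sample to a separate mouse. P values therefore measure the spread between these samples, which may be in part technical. The matrix holds no row for human SIGLEC12, so the transgene gave no check of the group labels.

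In an adherens junction, classical cadherins of neighbouring cells bind each other outside the cell, and their tails bind p120 catenin and beta-catenin, which is linked through alpha-catenin to actin. Nectins are immunoglobulin-like adhesion molecules that bind afadin and take part in forming the same junction. Desmosomes use their own cadherins (desmogleins and desmocollins), which plakoglobin, plakophilins and desmoplakin connect to keratin filaments, and hemidesmosomes tie keratin to the basement membrane through an integrin. Simple epithelium of the gut uses few desmosomal cadherins, whereas stratified squamous epithelium, as in skin, oesophagus and anal canal, uses many.

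The tissue label was checked against marker genes. All 10 intestinal epithelial markers (Krt8, Vil1, Cdx1 and others) passed the filter in this tissue, and their summed level was 12880 to 17230 TPM in controls and 12940 to 16850 TPM in Siglec-XII samples. All 10 squamous epithelial markers (keratins Krt5, Krt14, Krt13, Krt4, Krt10, Krt1 and Krt6a, with Trp63, Sprr1b and Lor) passed it as well. Their summed level was 20440 TPM in control 1 and 11340 TPM in control 4, against 1824 and 1737 TPM in controls 2 and 3, and it was 1910, 5758, 809 and 1002 TPM in Siglec-XII samples 1 to 4. Each of the 10 squamous markers was highest in controls 1 and 4, and none was at 0 in any sample. A median gene also lay lower in Siglec-XII samples 3 and 4 than in the other 6 (at -0.16 and -0.30 log2 units from its mean over the samples). Over the 13164 genes tested, the median Siglec-XII minus control difference was therefore -0.15 on the log2(TPM + 1) scale, and the differences below are to be read against that value. All 8 smooth muscle markers had a lower mean in Siglec-XII samples, as had 78.1% of all genes tested. Their summed level was 632 to 1016 TPM in controls and 308 to 659 TPM in Siglec-XII samples. The summed level of 3 mesothelial markers reached 18.7 TPM in Siglec-XII sample 4 and at most 2.64 TPM in the other samples. All 5 leukocyte markers and all 5 endothelial markers had a lower mean in Siglec-XII samples too, against that share of 78.1%. So had all 5 fibroblast, 6 enteric neuron and 4 enteric glia markers, whereas all 3 mesothelial markers had a higher mean. These counts of markers compare means of log2(TPM + 1). The summed level of the fibroblast markers was 9.3 to 26.6 TPM in controls and 10.5 to 63.9 TPM in Siglec-XII samples, highest in sample 4. Of the leukocyte, endothelial, fibroblast, enteric neuron and enteric glia markers, 2, 3, 1, 4 and 3 were below 1 TPM in every sample. The leukocyte sum was 10.8 and 7.96 TPM in controls 1 and 4 against 2.13 to 5.42 TPM in the other samples. The part of these cell types in the differences below was not tested.

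Within the adherens junction family, the epithelial set was abundant in every sample and its group means lay close together. Epcam, a surface glycoprotein of nearly all simple epithelia, had the highest level of the 34 genes. Its TPM was 1216, 1614, 1599 and 1460 in controls 1 to 4 and 1601, 1592, 1398 and 1300 in Siglec-XII samples 1 to 4. Both groups covered nearly the same range, and the lowest sample was control 1. Its log2 difference was 0.0038 (95% confidence interval, -0.26 to 0.27, adjusted p = 0.987 from limma), a sign that changed when control 1 was left out (-0.085).

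Cdh1 (E-cadherin, the classical cadherin of epithelium) came second, with 377 ± 83.9 TPM in controls and 345 ± 103 TPM in the Siglec-XII group (SD, n = 4 each). By sample it was 259, 436, 439 and 372 TPM in controls and 446, 417, 282 and 234 TPM in Siglec-XII samples. Control 1 and Siglec-XII samples 3 and 4 were low and the other 5 samples were high, so that the groups overlapped. Cdh17 (LI-cadherin, a cadherin of intestinal epithelium with a short cytoplasmic tail) was low in the same 3 samples, at 184 ± 43.2 and 183 ± 46.3 TPM (SD, n = 4 each). The ratio of Cdh1 to Cdh17 stayed between 1.65 and 2.16 in all 8 samples. Log2 differences were -0.15 (standard error 0.241) for Cdh1 and -0.01 (standard error 0.223) for Cdh17, and both turned positive after median centring, to 0.0651 and 0.20.

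The other classical cadherins were scarce. Cdh3 (P-cadherin, found in basal cells of stratified epithelium) lies next to Cdh1 on chromosome 8 of GRCm38 (chr8:106510891-106557297), yet its control mean was 1.96 ± 0.985 TPM (SD, n = 4). It was 2.98 and 2.52 TPM in controls 1 and 4, 1.55 and 0.784 TPM in controls 2 and 3, and 0.764, 1.13, 0.471 and 1.17 TPM in Siglec-XII samples. Its difference was -0.60 (standard error 0.26, unadjusted p = 0.0459). Cdh2 (N-cadherin, a cadherin of nerve and mesenchyme) stayed between 0.108 and 0.39 TPM in all samples. The 6 transcription factors that repress Cdh1 (Snai1, Snai2, Zeb1, Zeb2, Twist1 and Twist2) did not pass the filter, and none exceeded 1.83 TPM in a sample.

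The 250 bases before the start site of Epcam are shown because Epcam is the level against which the other junction genes stand, at chr17:87635729-87635978 on the plus strand of GRCm38.p6. This sequence and the others below are from RefSeq, whose table had an entry for 13 of the 34 genes, and they are written 5′ to 3′ on the strand of the gene. Capitals mark matches, on either strand, to 5 motifs, namely the E-box CACCTG of Snail and Zeb factors, the AP-1 site TGANTCA, the GC box GGGCGG, the CCAAT box and the TATA box TATAAA. Of 32851 promoter windows of that length, these letters occur in 17.2%, 6.75%, 32.7%, 33.8% and 12.4%, respectively.
Epcam: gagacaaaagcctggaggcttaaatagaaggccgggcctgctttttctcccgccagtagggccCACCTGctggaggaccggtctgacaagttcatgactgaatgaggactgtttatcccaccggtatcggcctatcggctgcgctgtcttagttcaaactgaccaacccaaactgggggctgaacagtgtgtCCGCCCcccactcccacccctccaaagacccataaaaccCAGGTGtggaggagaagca
The window holds 2 E-boxes, whose first bases lie 187 and 19 bases before the start site, and 1 GC box. A match is a description of the letters only.

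Catenins, which connect cadherins to actin, and vinculin made up 5 genes tested. Their log2 differences were -0.76 to -0.29, beside 78.1% of all genes below 0. Of the 5, 1 (Jup) was past an unadjusted p of 0.05 (limma), beside 8.87% of all genes. Ctnnb1 (beta-catenin, which binds the cadherin tail and also acts in Wnt signalling) was 319 ± 30.3 TPM in controls and 251 ± 64.2 TPM in the Siglec-XII group (SD, n = 4 each). Its values were 283, 354, 331 and 308 TPM in controls and 312, 298, 212 and 181 TPM in Siglec-XII samples. Siglec-XII samples 3 and 4 lay below all the others, and samples 1 and 2 within the control range. All 5 genes had Siglec-XII samples 3 and 4 as the lowest pair, as had 41.6% of all genes tested. Without these samples the differences of Ctnna1, Ctnnd1 and Vcl were 0.15, 0.11 and 0.0049 and those of Ctnnb1 and Jup -0.0594 and -0.23. Leaving out the lowest pair has to raise these differences. After median centring, with all samples kept, all 5 stayed below 0, from -0.55 for Jup to -0.0775 for Ctnna1. Alpha-E-catenin (Ctnna1), the actin link, was 164 ± 36 and 138 ± 47.2 TPM, p120 catenin (Ctnnd1), which stabilizes cadherin at the surface, 103 ± 16.8 and 82 ± 33.7 TPM, and vinculin (Vcl), which binds the complex under tension, 16.8 ± 2.99 and 12.1 ± 5.52 TPM (SD, n = 4 each). Ctnna2, the neural alpha-catenin, did not exceed 0.179 TPM. Of the 31-base windows of Ctnnd1, 58.6% also occur in transcripts of other genes, mostly the overlapping model Gm28635, and of those of Vcl 25.3% in Ap3m1, so that reads could be divided between these genes.

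Jup (plakoglobin, chr11:100368958-100397763), which serves both adherens junctions and desmosomes, behaved differently from the other catenins across samples. It was 359 TPM in control 1 and 300 TPM in control 4, against 203 and 202 TPM in controls 2 and 3, and 213, 225, 117 and 94.1 TPM in Siglec-XII samples 1 to 4. Controls 1 and 4 were thus highest, controls 2 and 3 lay just below Siglec-XII samples 1 and 2, and samples 3 and 4 were lowest. Its difference was -0.76 (standard error 0.312, unadjusted p = 0.0373, adjusted p = 0.515 from limma). Jup exceeded its relative Ctnnb1 in 1 of 8 samples, control 1, where the ratio was 1.27, and the ratio was 0.52 to 0.972 elsewhere.

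**Figure D1:**
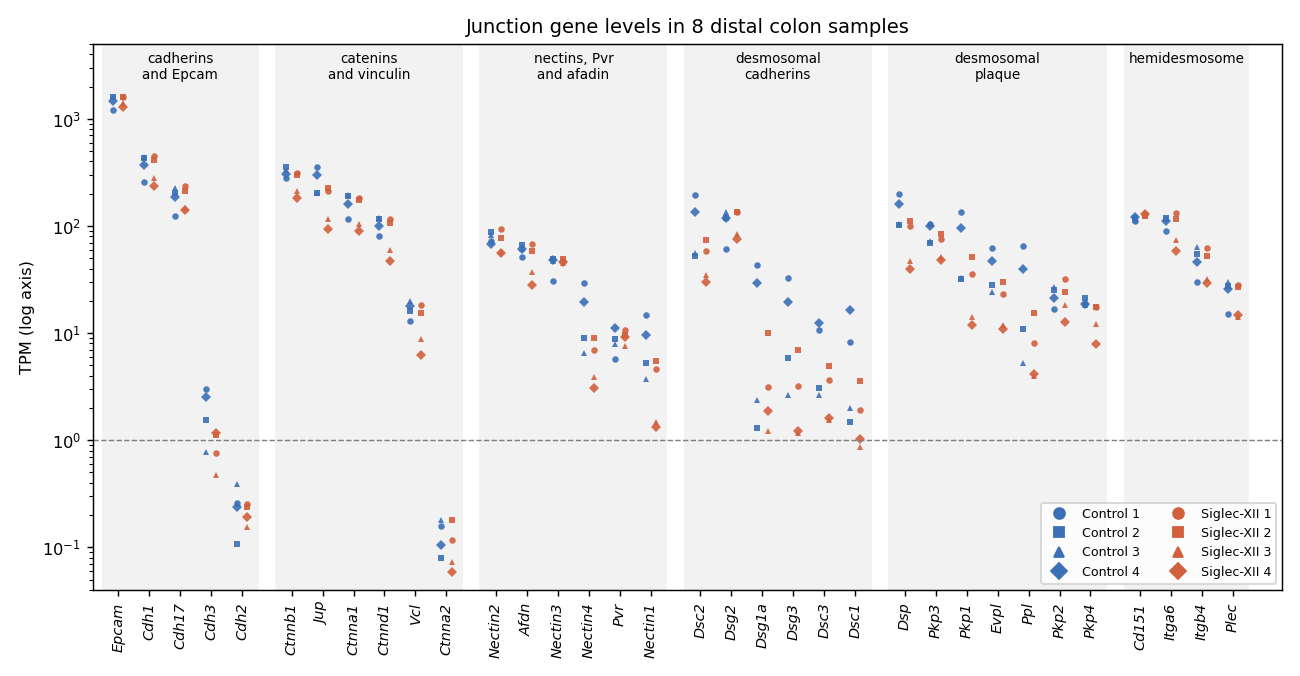
TPM (log axis) of the 34 junction genes in 8 samples, with each point a sample, controls in blue, Siglec-XII samples in orange and the filter value of 1 TPM as a dashed line. Genes run from Epcam at 1216 to 1614 TPM down to Ctnna2 under 0.179 TPM, and in most desmosomal cadherins the circle and diamond of controls 1 and 4 stand above the rest.

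In the nectin family, Nectin2 and Nectin3 were the main genes of the colon and their group means differed little. Nectin1 and Nectin4 had lower means in Siglec-XII samples, but their groups overlapped, with controls 1 and 4 highest and an adjusted p of 0.515 (limma) for both. Nectin2 (ENSMUSG00000062300, chr7:19716644-19750483, minus strand) is printed among the signature genes of the study, which were chosen on tumors after AOM/DSS and not on these samples. The paper reports that signature as upregulated in Siglec-XII mice after AOM/DSS. At baseline it reports no difference, by a composite score of the signature genes. The TPM of Nectin2 was 72.1, 86.9, 82 and 68.4 in controls 1 to 4 and 93.5, 77.5, 57.1 and 55.7 in Siglec-XII samples 1 to 4. Siglec-XII samples held both the highest value (sample 1) and the lowest (samples 3 and 4), so the groups overlapped. The means were 77.3 ± 8.57 and 71 ± 18.1 TPM (SD, n = 4 each), and the log2 difference was -0.15 (standard error 0.173, 95% confidence interval -0.54 to 0.24, adjusted p = 0.678 from limma). That difference was about the median of all genes. Its sign turned after median centring (0.0631), with array weights (0.0072) and when Siglec-XII samples 3 and 4 were left out (0.14).

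Nectin2 was the highest of Nectin1 to Nectin4 and Pvr in 8 of 8 samples, with a share of their summed TPM of 50.4% ± 5.92 in controls and 51.7% ± 4.09 in the Siglec-XII group (SD, n = 4 each). The share ranged from 43.6% in control 4 to 57.6% in Siglec-XII sample 1. Nectin3, the usual partner of nectin-2 across the junction, came next among the nectins, at 43.6 ± 8.73 and 46.7 ± 2.02 TPM (SD, n = 4 each). It was 30.6 TPM in control 1 and 44.8 to 49.5 TPM in the other 7 samples, and its difference of 0.12 (standard error 0.151) became -0.0363 without control 1. Pvr (the poliovirus receptor homologue, a nectin-like molecule and ligand of lymphocyte receptors) was 8.36 ± 2.23 and 9.26 ± 1.3 TPM (SD, n = 4 each), with a difference of 0.16 (standard error 0.191). Afadin (Afdn), which binds the nectin tails to actin, was 59.8 ± 5.85 and 47.5 ± 18.2 TPM (SD, n = 4 each), below Nectin2 in 8 of 8 samples. Its Siglec-XII values were 67.3, 58.1, 36.8 and 28 TPM, so that only samples 3 and 4 lay below the control range of 51.8 to 65.9 TPM.

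Nectin4 (chr1:171370099-171388598), known from skin and placenta, was 29.7 TPM in control 1 and 19.6 TPM in control 4, 9.07 and 6.46 TPM in controls 2 and 3, and 6.93, 8.95, 3.92 and 3.07 TPM in Siglec-XII samples 1 to 4. Nectin1 (chr9:43743984-43807461), a nectin of skin and nerve, was 14.6, 5.24, 3.71 and 9.53 TPM in controls and 4.6, 5.48, 1.48 and 1.34 TPM in Siglec-XII samples. In both genes controls 1 and 4 were highest, Siglec-XII samples 3 and 4 lowest, and the other 4 samples lay together. Log2 differences were -1.23 for Nectin4 (standard error 0.463, unadjusted p = 0.0264) and -1.13 for Nectin1 (standard error 0.457, unadjusted p = 0.0353), and adjusted p was 0.515 for both (limma). Without controls 1 and 4 neither was past an unadjusted p of 0.05. Together both genes made up 29% and 18.5% of the summed nectin and Pvr TPM in controls 1 and 4, 9.01% and 6.94% in controls 2 and 3, and 3.82% to 9.55% in Siglec-XII samples. In the order of control means (Nectin2, Afdn, Nectin3, Nectin4, Pvr, Nectin1), the first 4 genes had separate control ranges, and the ranges of Nectin4, Pvr and Nectin1 overlapped.

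**Figure D2:**
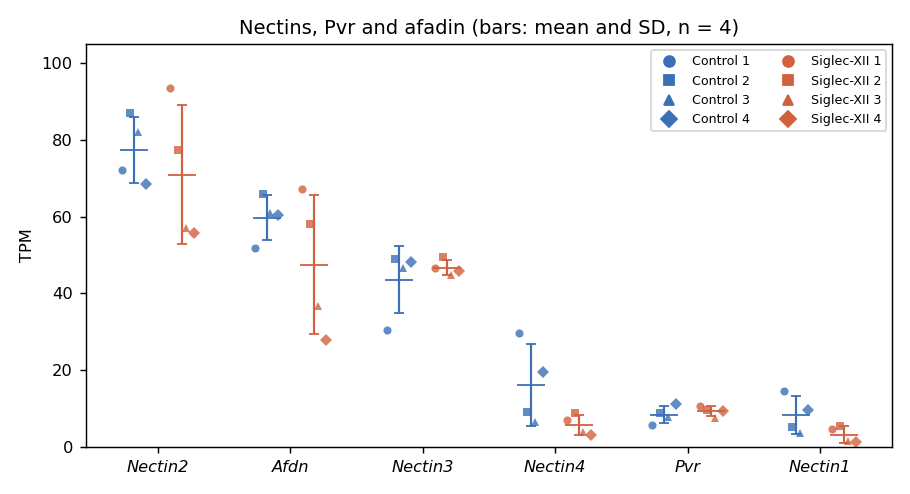
TPM of the nectins, Pvr and afadin by sample, with points for samples and bars for the mean and SD of 4 samples (controls blue, Siglec-XII orange). Nectin2 spans 55.7 to 93.5 TPM with overlapping groups, whereas Nectin4 reaches 29.7 and 19.6 TPM in controls 1 and 4 and at most 9.07 TPM in the other 6 samples.

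Sequences before the RefSeq start sites of Nectin2, Nectin3 and Nectin4 are shown because Nectin2 and Nectin3 varied 1.68-fold and 1.62-fold over the 8 samples and Nectin4 varied 9.67-fold. They lie at chr7:19749574-19749823 (minus strand), chr16:46496968-46497217 (minus strand) and chr1:171369923-171370098 (plus strand) of GRCm38.p6. The windows of Nectin2 and Nectin3 lie inside the longer gene models of GENCODE M21, downstream of their 5′ ends and outside their exons, and that of Nectin4 is 176 bases, since the rest lies in an exon of GENCODE M21.
Nectin2: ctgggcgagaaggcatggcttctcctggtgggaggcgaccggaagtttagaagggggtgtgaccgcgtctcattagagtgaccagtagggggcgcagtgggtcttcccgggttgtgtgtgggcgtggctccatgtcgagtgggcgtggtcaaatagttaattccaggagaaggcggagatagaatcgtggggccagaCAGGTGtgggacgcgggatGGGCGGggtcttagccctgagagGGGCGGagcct
Nectin3: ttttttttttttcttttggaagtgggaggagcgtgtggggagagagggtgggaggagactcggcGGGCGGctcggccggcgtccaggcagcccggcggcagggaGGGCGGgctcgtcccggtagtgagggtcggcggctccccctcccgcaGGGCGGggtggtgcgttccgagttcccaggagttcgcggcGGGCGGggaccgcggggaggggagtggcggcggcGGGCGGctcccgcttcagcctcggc
Nectin4: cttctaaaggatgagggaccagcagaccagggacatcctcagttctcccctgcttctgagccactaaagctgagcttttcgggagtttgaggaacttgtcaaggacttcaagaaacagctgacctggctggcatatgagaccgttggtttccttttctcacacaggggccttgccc
Nectin2 has 1 E-box, with its first base 53 bases before the start site, and 2 GC boxes, and Nectin3 has 5 GC boxes. None of the 5 motifs is in the Nectin4 window, which says only that these letters are absent from it. That window is shorter than the others and lacks the bases nearest the start site, which were not searched. G and C made up 62%, 73.2% and 52.3% of the bases in the windows of Nectin2, Nectin3 and Nectin4.

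Desmosomal cadherins are encoded side by side on chromosome 18 (from 19960930, in Dsc3, to 20604521, in Dsg2), and they split into Dsg2, which did not follow the squamous markers, and 5 genes that did. Dsg2 (desmoglein-2, the desmoglein of simple epithelium) was 60.7, 119, 136 and 119 TPM in controls and 136, 134, 84.1 and 75.1 TPM in Siglec-XII samples. Control 1 was lowest, and the group means were 109 ± 32.9 and 107 ± 32.2 TPM (SD, n = 4 each). Its partner Dsc2 (desmocollin-2, the desmocollin of simple epithelium and also of stratified epithelium) had a like control mean, 110 ± 69.2 TPM (SD, n = 4), with another spread over samples. Dsc2 was 196 and 136 TPM in controls 1 and 4, 52 and 55.6 TPM in controls 2 and 3, and 58.3, 73.4, 35 and 29.8 TPM in Siglec-XII samples. Dsg2 accordingly exceeded Dsc2 in 6 of 8 samples, the exceptions being controls 1 and 4, with Dsg2 to Dsc2 ratios of 0.31 and 0.874 against 1.83 to 2.52 elsewhere.

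Dsg1a, Dsg3, Dsc1 and Dsc3, the desmosomal cadherins known from stratified epithelium, were found at low level in most samples. Dsg3 was 33 and 19.4 TPM in controls 1 and 4, 5.91 and 2.63 TPM in controls 2 and 3, and 3.21, 6.9, 1.18 and 1.22 TPM in Siglec-XII samples. Dsg1a varied most of all 34 genes, from 1.22 TPM in Siglec-XII sample 3 to 43.1 TPM in control 1, a ratio of 35.3. Dsg3, Dsc1 and Dsc3 varied 28.1-fold, 19-fold and 7.97-fold. The 4 genes made up 27% and 23.4% of the desmosomal cadherin TPM in controls 1 and 4, 6.44% and 4.82% in controls 2 and 3, and 5.78%, 10.9%, 3.88% and 5.2% in Siglec-XII samples 1 to 4. Siglec-XII sample 2, which came after controls 1 and 4 in the summed squamous markers, also came after them in this share.

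The log2 difference was -1.69 for Dsg3 (standard error 0.706, unadjusted p = 0.0403) and ranged from -1.29 to -0.91 for Dsg1a, Dsc1, Dsc2 and Dsc3, none of which was past an unadjusted p of 0.05. For Dsg1a the sign turned to 0.57 without controls 1 and 4 and to 0.46 with the squamous marker level as a covariate. Of its 31-base windows, 41.4% also occur in other genes, mostly in Dsg1b, so its value is uncertain.

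Plaque genes, which connect the desmosomal cadherins to keratin, split in the same manner. Dsp (desmoplakin, chr13:38151294-38198577, the link to keratin present in all desmosomes) was 199, 102, 104.6 and 160 TPM in controls 1 to 4 and 99.7, 111, 47.3 and 39.5 TPM in Siglec-XII samples 1 to 4. Siglec-XII sample 2 lay within the control range and sample 1 just below it. Its difference was -0.996 (standard error 0.363, 95% confidence interval -1.82 to -0.17, unadjusted p = 0.0227, adjusted p = 0.515 from limma). Evpl (envoplakin, chr11:116220559-116238077), a plakin of the cornified envelope of squamous cells, was 62.9, 27.9, 24.1 and 47.6 TPM in controls and 23.2, 30.2, 12 and 11 TPM in Siglec-XII samples, with a difference of -1.06 (standard error 0.386, unadjusted p = 0.0223). Its partner Ppl (periplakin) was 64.5 and 39.9 TPM in controls 1 and 4 and 3.98 to 15.5 TPM in the other 6 samples.

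Dsp is shown as the plaque gene that every desmosome uses, from its window at chr13:38151044-38151293 on the plus strand of GRCm38.p6, which a gene model of the other strand, Gm10129, also covers.
Dsp: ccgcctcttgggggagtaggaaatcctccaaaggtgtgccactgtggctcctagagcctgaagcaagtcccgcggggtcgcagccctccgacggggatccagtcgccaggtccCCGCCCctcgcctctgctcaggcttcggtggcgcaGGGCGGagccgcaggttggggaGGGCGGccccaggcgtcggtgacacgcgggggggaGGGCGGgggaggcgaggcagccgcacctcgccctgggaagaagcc
It holds 4 GC boxes and no other of the 5 motifs, and 72.4% of its bases are G or C.

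Among plakophilins, armadillo proteins of the plaque, Pkp1 (the plakophilin of stratified epithelium) was 136 and 96.6 TPM in controls 1 and 4, 31.9 and 32.4 TPM in controls 2 and 3, and 35.8, 51.8, 14.2 and 11.8 TPM in Siglec-XII samples. It made up 49.1% and 40.8% of the plakophilin TPM in controls 1 and 4, 21.6% and 21.5% in controls 2 and 3, and 14.7% to 29.2% in Siglec-XII samples. Pkp3, which occurs in simple and stratified epithelium alike, was 87 ± 18.2 TPM in controls and 64.8 ± 17.8 TPM in the Siglec-XII group (SD, n = 4 each), and it exceeded Pkp1 in every sample but control 1. Pkp2, the plakophilin of simple epithelium and heart, was 22.5 ± 4.56 and 21.8 ± 8.27 TPM (SD, n = 4 each) and had a difference of -0.10 (standard error 0.264). Pkp4 (p0071), which sits in both kinds of junction, was 18.5, 21.2, 18.4 and 18.7 TPM in controls and 17.5, 17.7, 12.3 and 7.89 TPM in Siglec-XII samples. All its Siglec-XII values lay below all its control values, narrowly for samples 1 and 2, and its difference of -0.50 (standard error 0.228) had an unadjusted p of 0.0543.

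Hemidesmosome genes encode proteins that anchor epithelium to the basement membrane, and 4 of them were tested. The integrin alpha-6 chain Itga6 was 110 ± 13.2 TPM in controls and 95.1 ± 34.2 TPM in the Siglec-XII group, its partner beta-4 chain Itgb4 48.6 ± 14.2 and 44.2 ± 16.1 TPM, and Plec (plectin, the link to keratin) 24.6 ± 6.51 and 20.9 ± 7.54 TPM (SD, n = 4 each). Their differences were -0.27, -0.16 and -0.25 (standard errors 0.241, 0.292 and 0.284), and they varied 2.2-fold, 2.2-fold and 2.1-fold between samples. Siglec-XII samples 3 and 4 were the lowest pair for Itga6 and Plec, as for 41.6% of all genes tested. Cd151, a tetraspanin bound to the laminin-binding integrins, varied least of the 32 genes tested, 1.15-fold between its lowest and highest sample. It was 112, 120, 114 and 121 TPM in controls and 128, 125, 126 and 130 TPM in Siglec-XII samples, so that all Siglec-XII values lay above all control values. The difference of 0.12 (standard error 0.071, 95% confidence interval -0.04 to 0.28) had an unadjusted p of 0.118, and 0.0207 after median centring.

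Siglec-XII samples were thus compared with controls for 32 genes in 1 fit over all 13164 genes. At 0.05 on adjusted p (limma), 0 of the 32 passed, the smallest value being 0.515, against 0.038% of all genes tested. At an unadjusted p of 0.05 or less, 7 passed (21.9%), all lower in Siglec-XII samples (Cdh3, Jup, Nectin1, Nectin4, Dsg3, Dsp and Evpl). Of all genes tested 8.87% passed at that limit in either direction and 7.67% as lower. The median difference of the 32 genes was -0.42 beside -0.15 for all genes, and 28 of 32 lay below 0, as did 78.1% of all genes. Groups did not overlap for 2 of 32 genes (Pkp4 and Cd151), beside 5.11% of all genes. The count of 7 was 0 without control 1 (8.5% of all genes), without control 4 (5.0%) or without Siglec-XII sample 3 (3.7%). It was 1 without Siglec-XII sample 4 (4.3%), and 9 to 12 without any 1 of the other 4 samples (6.5% to 18%). The split of directions depended on the scaling. After median centring 3 of the 32 were lower (Nectin4, Dsp and Evpl) and 3 higher (Nectin3, Pvr and Cd151) at the unadjusted limit. Of all 13164 genes, 285 were lower and 1137 higher in that fit. After quantile normalization 4 of the 32 were lower and 2 higher, beside 408 and 704 of all 13164 genes.

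**Figure D3:**
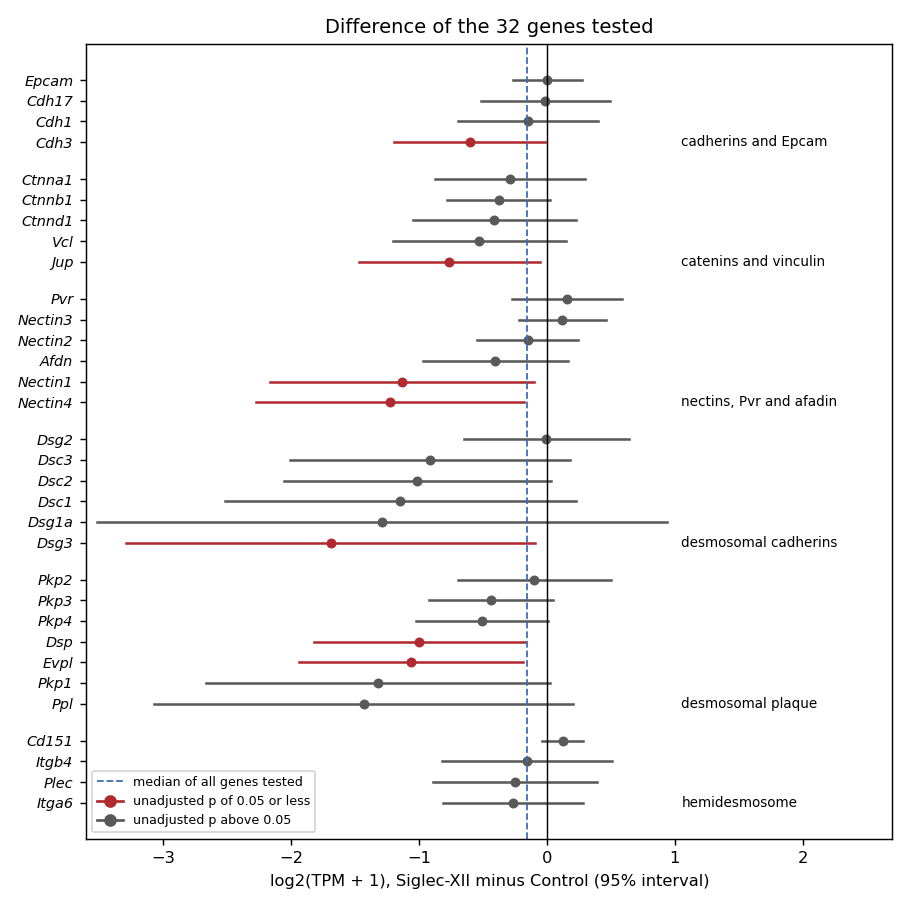
Difference between Siglec-XII and control samples, in log2(TPM + 1), for the 32 genes tested, with 95% confidence intervals, and the median of all genes as a dashed line at -0.15. The 7 genes with an unadjusted p of 0.05 or less (red) run from -1.69 for Dsg3 to -0.60 for Cdh3, and the interval of Nectin2 spans -0.54 to 0.24.

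The order of samples described above held for a definite subset. In 14 of the 32 genes (43.8%) controls 1 and 4 were both above the other 6 samples, beside 8.64% of all genes tested. They were Cdh3, Jup, Nectin1, Nectin4, Dsg1a, Dsg3, Dsc1, Dsc2, Dsc3, Dsp, Pkp1, Pkp3, Ppl and Evpl, and the 7 genes past the unadjusted limit were all among them. This split was made on the same values, and so it is given as a description, and leaving out controls 1 and 4 or adjusting for markers highest in them has to shrink the differences of these genes. Siglec-XII sample 2 was the highest Siglec-XII sample in 13 of the 14, for which the share of all genes was not computed. Samples 3 and 4 were the lowest of all in 12, as in 9 of the other 18 genes and 41.6% of all genes tested. Leaving these 2 samples out thus has to shrink those differences as well. The 14 genes had a median difference of -1.10 with all samples, -0.32 without controls 1 and 4, -0.50 without Siglec-XII samples 3 and 4 and -0.26 with the squamous marker level as a covariate. At the unadjusted limit 0 of the 14 passed in each of these last 3 fits, beside 4.26%, 2.75% and 2.03% of all genes, so that 0 of 14 lies near the share over all genes. The levels of the 10 squamous markers moved with them, as given above, and the part of squamous cells in the group difference was not tested. In bulk tissue, fewer cells of a type and less RNA per cell cannot be told apart.

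The other 18 genes (Cdh1, Cdh17, Epcam, Ctnna1, Ctnnb1, Ctnnd1, Vcl, Nectin2, Nectin3, Pvr, Afdn, Dsg2, Pkp2, Pkp4, Itga6, Itgb4, Plec and Cd151) varied 1.15-fold to 3.25-fold between samples, against 2.2-fold to 35.3-fold for the 14. Control 1 was the lowest control in 16 of the 18, for which the share of all genes was not computed. A median gene also lay lower in control 1 (at -0.045 log2 units from its mean) than in the other controls (0.08 to 0.15). The split itself removed genes with controls 1 and 4 highest, which favours such a count. The 18 genes had a median difference of -0.15 with all samples, -0.39 without controls 1 and 4 and 0.15 without Siglec-XII samples 3 and 4. Across the matrix the median difference was -0.0586 among the 3253 genes with the shortest transcripts (1815 bases or less). It was -0.24 among the 3251 with the longest (4499 bases or more). A median gene of the longest lay at -0.33 and -0.49 log2 units from its mean in Siglec-XII samples 3 and 4. It lay at 0.21 and 0.11 in Siglec-XII samples 1 and 2, and at -0.11, 0.23, 0.20 and 0.15 in controls 1 to 4. Of the 32 junction genes, 17 were among those with the longest and 0 among those with the shortest. The part of transcript length in their differences was not tested.

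**Figure D4:**
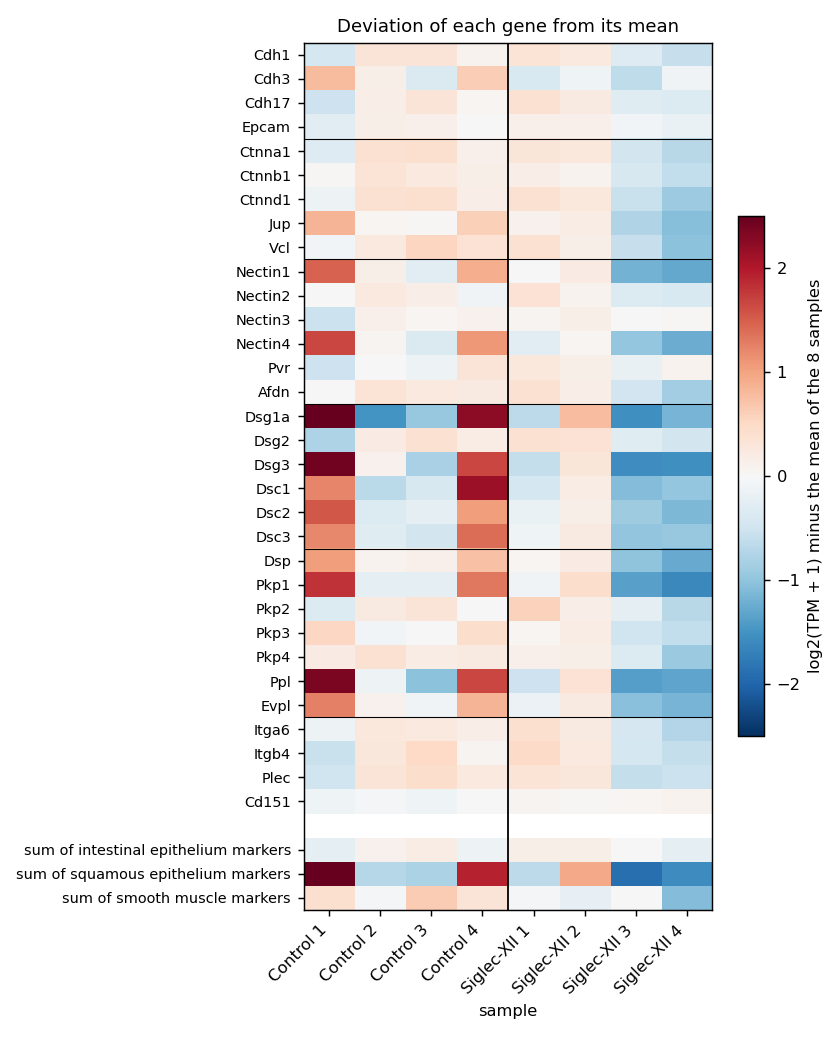
Deviation of each gene tested from its mean over the 8 samples, in log2(TPM + 1), red above and blue below the mean, with the summed levels of 3 marker lists in the lowest rows. Controls 1 and 4 are red in the 14 genes named above and in the squamous markers, and Siglec-XII samples 3 and 4 are blue in most genes.

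Further genes of these junctions were taken from fixed lists. Among other desmosome genes, Perp, a tetraspan protein of desmosomes, was 621 ± 386 TPM in controls and 347 ± 63.5 TPM in the Siglec-XII group (SD, n = 4 each). Controls 1 and 4 were at 1132 and 705 TPM, and controls 2 and 3, at 341 and 305 TPM, lay within the Siglec-XII range of 299 to 437 TPM. Of 4 other nectin-like molecules 2 were tested and 0 passed the unadjusted limit, and Cadm4 was 12.2 ± 12.4 and 2.4 ± 1.71 TPM (SD, n = 4 each), with Cadm1 at 1.83 ± 0.375 and 1.58 ± 0.144 TPM. Cadm4 was 29.6 and 12.1 TPM in controls 1 and 4 and 5.33 and 1.57 TPM in controls 2 and 3, so its control mean rests on controls 1 and 4.

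Of 20 other plaque proteins and actin linkers of adherens junctions, 18 were tested, 4 passed the unadjusted limit as lower (7.67% of all genes) and 0 as higher, and all 18 differences lay below 0 (78.1% of all genes), with a median of -0.29. Their most abundant members were Vasp, an actin regulator (362 ± 43.9 and 344 ± 66.4 TPM), and Actn4, an actin crosslinker (227 ± 25.4 and 192 ± 55.8 TPM, SD, n = 4 each). Of 16 other cadherins 5 were tested and 0 passed, and the protocadherins of the brush border Cdhr5 (403 ± 96.9 and 417 ± 69.6 TPM) and Cdhr2 (128 ± 28.4 and 126 ± 26.8 TPM, SD, n = 4 each) stood beside Cdh1 and Cdh17 in level. Of 9 further hemidesmosome and basement membrane anchor genes 9 were tested and 0 passed, with Itgb1 at 70.7 ± 11.4 and 65.4 ± 13.6 TPM and Lamb3 at 55.4 ± 13.2 and 58.2 ± 10.5 TPM (SD, n = 4 each). Of 7 sheddases, membrane proteases and their inhibitors 6 were tested and 0 passed, and Spint2, a membrane-bound serine protease inhibitor of epithelium, was 1848 ± 167 and 1869 ± 70.7 TPM, with Spint1 at 245 ± 13.7 and 245 ± 36 TPM (SD, n = 4 each). The 5 lymphocyte receptors of nectins and Pvr (Cd226, Tigit, Cd96, Pvrig and Crtam) did not pass the filter, and the highest value was 0.536 TPM. Over these lists the smallest adjusted p from limma was 0.515.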

How the data were processed

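RNA-Seq of distal colon from 4 control and 4 Siglec-XII samples was used, grouped by the labels. The authors deposited log2(TPM + 1) per gene and sample. The submitters' processing notes name kallisto 0.45.0 and GRCm38, whereas the Methods name another kallisto version, a human reference, gene counts and DESeq2, and those counts were not used here. TPM keeps no depth, so no interval for depth was computed and the number of samples limits precision. Values were taken back to TPM by subtracting the pseudocount of 1, and fold changes on the log2(TPM + 1) scale understate changes of low genes.

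The 13164 genes at 1 TPM or more in 4 or more samples were fitted in R 4.3.3 (lmFit and trended eBayes of limma 3.58.1, two-sided), with Benjamini-Hochberg adjustment over all of them. This test was chosen because the values are on a log scale. The fit was tested on simulated data. Every member gene is named, and of the further lists the genes past an adjusted p of 0.05 and the 2 with the highest mean. A further desmosome gene is not reported here. The members and lists were chosen with earlier results of these data known. Positions, exons and transcripts are from GENCODE M21 (GRCm38), and promoters from RefSeq (GRCm38.p6). The alternatives were other filters and pseudocounts, scalings, sample weights, a replicate block and each sample left out. Leaving out 2 samples at once and the squamous covariate (mean log2 level of the 10 squamous markers) were chosen after seeing the data.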

Additional observations from a re-analysis of the deposited data

Results flagged for a closer look

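Each of the 34 genes was examined in both groups of 4 for a sample far from the other 3, with a limit on the gap between that sample and its nearest neighbour as a share of the whole range. Of 68 gene and group pairs 3 were past the limit, and chance gives about 1 in 20, or 3.4. Nectin3 in control 1 was at 30.6 TPM, and its gap was 0.898 of the range of controls. Dsg2 in control 1 was at 60.7 TPM, with a gap of 0.835 of the range. Pkp4 in control 2 was at 21.2 TPM, above the other controls, with a gap of 0.883 of the range. Control 1 was thus the low sample for both the desmoglein and the nectin flagged, and it was also the sample with the highest summed squamous markers. Whether these go together was not tested, and the 3 flags lie near the 3.4 that chance gives.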

How the results depend on the processing

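With a call at an adjusted p of 0.05 or less, 0 of the junction genes passed in limma with all samples and in each of the 19 alternatives, and of 604 gene values under alternatives 551 kept their direction and 53 changed sign, in 15 of the 32 genes. The count at an unadjusted p of 0.05 or less was 7 with all samples (8.87% of all genes), 4 with no filter (6.51%) and 0 with array weights (14.1%). It was 0 without controls 1 and 4 (4.26%), 0 without Siglec-XII samples 3 and 4 (2.75%) and 0 with the squamous marker level as a covariate (2.03%). With 1 sample left out it was 0 to 12, beside 3.7% to 18% of all genes. Groups did not overlap for 2 genes with all samples, beside 5.11% of all genes. That count was 1 after median centring, 1 after quantile normalization, 5 without controls 1 and 4, and 2 to 4 when 1 sample was left out. The share of all genes was not computed for these alternatives, and with fewer samples groups separate more easily. The median difference of -0.42 was -0.0273 without Siglec-XII samples 3 and 4, -0.0824 with array weights, -0.21 after median centring, -0.21 with the squamous covariate, and -0.58 to -0.25 when 1 sample was left out.

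Signs changed after median centring for Cdh1 (0.0651), Cdh17 (0.20), Nectin2 (0.0631), Dsg2 (0.21), Pkp2 (0.12) and Itgb4 (0.0571). After quantile normalization they changed for Cdh17 (0.0683), Dsg2 (0.0912) and Pkp2 (0.0865), and after centring on epithelial markers for Cdh17 (0.0503) and Dsg2 (0.0586). Array weights changed them for Cdh1 (0.0368), Cdh17 (0.0916), Nectin2 (0.0072), Dsg1a (0.12), Dsg2 (0.14), Pkp2 (0.0524), Itga6 (0.0064) and Itgb4 (0.0187). Without controls 1 and 4 they changed for Epcam (-0.13), Nectin3 (-0.0311) and Dsg1a (0.57), and with the squamous covariate for Epcam (-0.0427) and Dsg1a (0.46). Without Siglec-XII samples 3 and 4 they changed for Cdh1 (0.23), Cdh17 (0.30), Ctnna1 (0.15), Ctnnd1 (0.11), Vcl (0.0049), Nectin2 (0.14), Afdn (0.0683), Dsg2 (0.37), Pkp2 (0.31), Itga6 (0.18), Itgb4 (0.29) and Plec (0.20). With 1 sample left out, values ran from -0.085 to 0.0619 for Epcam, -0.0363 to 0.18 for Nectin3, -0.19 to 0.0987 for Cdh17, -0.26 to 0.15 for Dsg2, -0.32 to 0.0214 for Cdh1, -0.30 to 0.12 for Pkp2 and -0.36 to 0.0156 for Itgb4. For Nectin2 they ran from -0.29 to -0.05. The cause was not tested.

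Samples of both groups carry the numbers 1 to 4. Deviations of same-numbered samples correlated at -0.16, -0.20, 0.10 and -0.0025, and each control matched another number best. Pairing by number was thus not seen, but 4 such correlations cannot exclude it. With the replicate block 9 of 32 genes passed the unadjusted limit, beside 7.18% of all genes, and 0 the adjusted one. The difference of Nectin2 was -0.15 in that paired analysis. TPM values carry no read depth, so the counting error of low genes such as Cdh2 and Ctnna2 is unknown.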
